A study of Mus musculus with 12 samples.

Results

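The genes described here encode the subunits of the oxidative phosphorylation complexes I to V, in livers and macrophages with and without esculetin, a plant coumarin. Members were the protein-coding genes whose mouse symbol marks a subunit of NADH dehydrogenase (complex I), succinate dehydrogenase (complex II), the cytochrome bc1 complex (complex III), cytochrome c oxidase (complex IV) or ATP synthase (complex V). There were 103 such genes among 55357 gene identifiers, of which 21627 were protein coding, and 13 of the 103 were on the mitochondrial genome and 90 on nuclear chromosomes. The rule goes by symbol, so it also took in the ATP synthase inhibitor Atp5if1, the supercomplex factor Cox7a2l, the locus Cox5b-ps and Ndufa4, which is named for complex I although it is now placed in complex IV. Counts were 0 in all 12 libraries for 4 of the 103, namely Cox7b2, Cox8c, Ndufb11b and a second identifier of Atp5po. After genes with few counts were removed, 95 members could be tested for the liver and 97 for the cells. The remaining losses were Cox6b2 and Cox8b in both and Cox4i2 and Cox6a2 in the liver.

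RNA was sequenced in 12 libraries, 3 per group, and the deposited counts per gene form a liver table and a cell table. The livers came from male wild-type C57BL6/J mice of 8 to 9 weeks that were gavaged for 7 days with esculetin at 90 mg/kg/day or, as controls, with 2.5% Tween-80, and all received a control diet (10% of energy from fat) for 4 days and then a high-fat diet (60%) for 3 days. According to the study, each liver sample pools a pair of mice. The cells were wild-type RAW264.7, a mouse macrophage line, and both groups were held for 24 hours with DIL-labelled oxidized LDL (oxLDL) at 25 µg/mL, to which esculetin at 40 µg/mL was added, or DMSO, its solvent. The labels do not say whether the 3 cell samples of a group came from separate cultures, so p-values there measure the spread between these samples, which may be technical. The liver libraries held 14659876 to 20346460 counts each and the cell libraries 13752842 to 20001959. Levels are given in CPM, counts scaled to a common library size. Hepatocyte markers summed to between 109600 and 137000 CPM in the liver libraries, where the 10 Kupffer cell or macrophage markers summed to 401 to 508 CPM, and in the cells 9 of the 10 hepatocyte markers were at 3 counts or fewer in every library. In the liver 0 of the macrophage markers were called with edgeR, but 3 of the 9 tested had an unadjusted p under 0.05, against 8.37% of all genes. The median log2 fold change of the 9 was -0.22. The part of these cells in the liver values below was not tested. Of the liver libraries' other markers, 0 of the endothelial, stellate, bile duct and red cell lists were called, with at most 1 of a list at an unadjusted p under 0.05. The white cell and fat lists had 1 tested gene each, not called, and for fat it was Cox7a1, itself a member. The muscle and pancreas lists had 0 tested, so these 0 calls cannot show a lack of difference. Summed CPM was 0.12 to 0.44 in the controls and 0.32 to 4.3 with esculetin for muscle. It was 0.70 to 1.43 and 1.43 to 6.99 for fat, 0.25 to 0.31 and 0.49 to 0.91 for pancreas, and 2.74 to 3.26 and 1.53 to 2.39 for white cells. In the cells the bile duct list was held by 1 tested gene, Spp1, which was called higher and is also made by macrophages (797 to 918 CPM for the list in the controls and 4793 to 9730 with esculetin). Of the 2 stellate markers tested 1 was called higher and 1 lower. The endothelial, white cell and fat lists had 1 tested gene each, with 0 called and 0 at an unadjusted p under 0.05. For fat that gene was again Cox7a1. The red cell and pancreas lists had 0 tested in the cells and cannot show a difference or its absence.

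Complexes I, III and IV pass electrons from NADH to oxygen and pump protons across the inner mitochondrial membrane, complex II feeds in electrons from succinate, and complex V uses the proton gradient to make ATP. Complexes I, III, IV and V are built from subunits of both genomes, so their genes are transcribed by separate machineries in the nucleus and in the mitochondrion. In the liver these complexes serve fatty acid oxidation and gluconeogenesis, and in macrophages the balance between respiration and glycolysis shifts with activation.

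The mitochondrial genes differ in how far their counts can be read, because part of the mitochondrial genome has a nearly identical copy in the nucleus. In the reference genome GRCm39 that copy lies at chr1:24650612-24655271 on the minus strand and corresponds to positions 6388 to 11046 of the mitochondrial genome, with 7 mismatches in 4659 bases. It covers the whole of mt-Co2, mt-Atp8, mt-Atp6, mt-Co3, mt-Nd3 and mt-Nd4l, 31.4% of the length of mt-Co1 and 63.9% of mt-Nd4, and none of mt-Nd1, mt-Nd2, mt-Nd5, mt-Nd6 or mt-Cytb. The following stretches, of 60 bases each, show why a read from mt-Co2 has no single place in the genome while mt-Co1 can be told from the copy at its edge. Capitals mark the bases at which the mitochondrial genome and the copy differ.
mt-Co2, mitochondrial genome, chrM:7324-7383, plus strand: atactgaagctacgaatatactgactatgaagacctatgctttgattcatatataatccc
mt-Co2, chromosome 1 copy, chr1:24654276-24654335, minus strand: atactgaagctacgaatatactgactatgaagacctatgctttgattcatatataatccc
mt-Co1, mitochondrial genome, chrM:6388-6447, plus strand: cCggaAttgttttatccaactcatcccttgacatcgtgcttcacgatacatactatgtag
mt-Co1, chromosome 1 copy, chr1:24655212-24655271, minus strand: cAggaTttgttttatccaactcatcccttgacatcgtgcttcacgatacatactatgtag

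Counts of the 6 fully copied genes were low in every library. Per kb of gene length, the mean level in control livers was 18260 CPM for mt-Co1, 4910 for mt-Cytb and 3362 for mt-Nd1, against 130.2 for mt-Co2, 231 for mt-Co3 and 107 for mt-Atp6. In control cells the same levels were 19960, 1590 and 1746 CPM per kb against 59.5, 54.7 and 86.01. Taken as a sum, the 6 fully copied genes made up 0.0260% to 0.0607% of a liver library and 0.0138% to 0.0227% of a cell library. How reads with several places in the genome were counted is not given in the sources used here, so the values of these 6 genes are uncertain and cannot be read as the levels of their transcripts. The library kit does not mark strand, so reads of mt-Nd6, encoded on the opposite strand, cannot be told from antisense transcripts of that region. Pairs that overlap, mt-Atp8 with mt-Atp6 and mt-Nd4l with mt-Nd4, share bases.

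**Figure D1:**
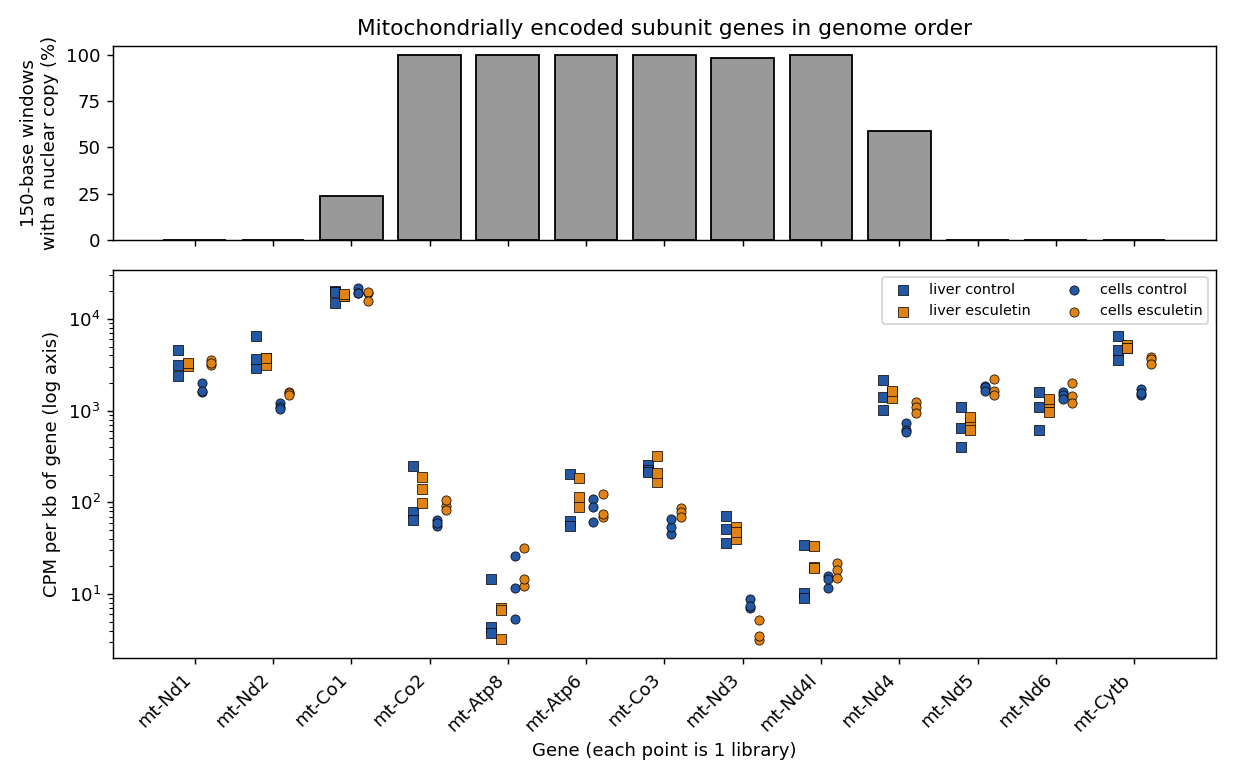
The 13 mitochondrially encoded genes in genome order. Top, percentage of the 150-base windows of each gene that occur exactly elsewhere in the nuclear genome; bottom, CPM per kb of gene on a log axis, each point 1 library (squares liver, circles cells, blue control, orange esculetin). The 6 genes at 98.5% or 100% in the top panel lie below the others in the bottom panel.

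In the liver, the share of all counts held by the 13 mitochondrially encoded genes was 6.23%, 3.51% and 4.47% in the control libraries, and 4.38%, 4.21% and 4.49% in those given esculetin. Control replicate 1 stood above the other 5 libraries, and the groups overlapped. That library also differed in its mixture of mitochondrial transcripts: counts of mt-Nd2, a complex I subunit, came to 21.5, 12.9 and 12.6% of those of mt-Co1 in the controls and to 14.2, 11.8 and 13.8% with esculetin. The 90 nuclear genes held 1.48%, 1.65% and 1.77% of the counts in the controls and 1.78%, 1.80% and 1.83% with esculetin. Control replicate 1 was the lowest of the 6 libraries for 77 of the 82 nuclear members that passed the filter on low counts, and the highest for 12 of the 13 mitochondrial ones. The liver results are therefore given with and without it. The differences between groups in the mitochondrial share were -0.38 percentage points with all 3 controls and 0.37 without control replicate 1.

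**Figure D2:**
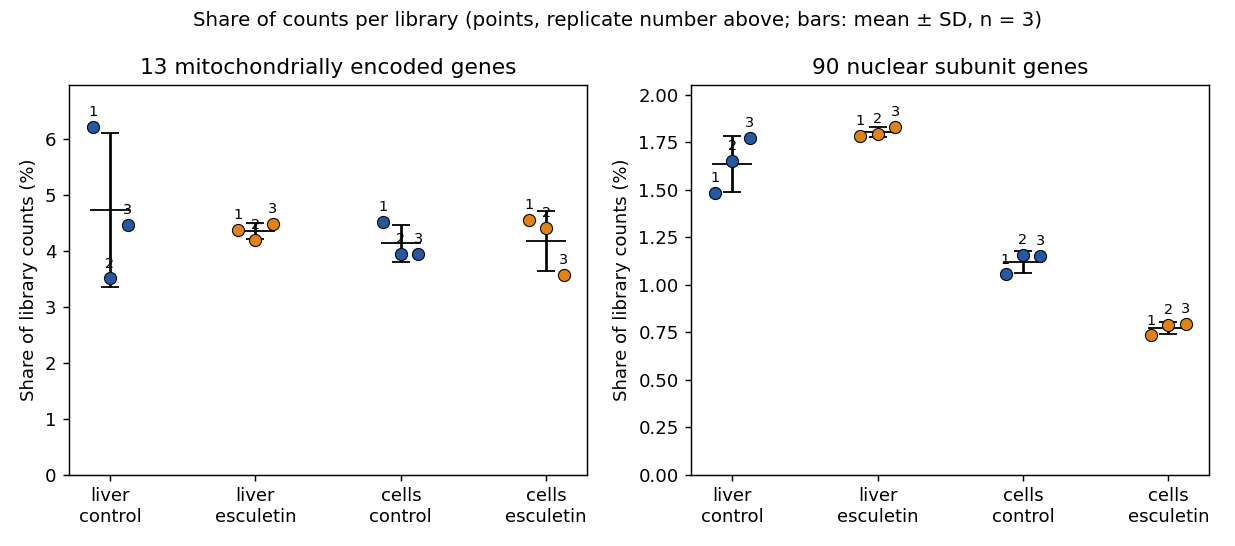
Percentage of each library's counts held by the 13 mitochondrially encoded genes (left) and the 90 nuclear subunit genes (right). Points are libraries with the replicate number above them, and bars give mean ± SD (n = 3); the nuclear share is lower in every esculetin-treated cell library than in any control cell library.

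No subunit gene passed the test in the liver. A gene is called here when its Benjamini-Hochberg adjusted p, over all genes of the table, is under 0.05. Of the 95 members tested, 0 were called with edgeR's quasi-likelihood test, against 0.0859% of all genes tested, and DESeq2 and limma-voom also called 0. At an unadjusted p under 0.05 there were 3 members, against 8.37% of all genes. They were Ndufa2, a complex I subunit, Cox7a2l and Atp5me, a membrane subunit of ATP synthase. Ndufa2 stood at 49.6, 66.8 and 67.9 CPM in the controls and 80.2, 73.9 and 81.5 with esculetin (log2 fold change 0.35, SE 0.14, adjusted p = 0.517). Cox7a2l stood at 70.95, 104 and 102 CPM and 115, 127 and 111 CPM (log2 fold change 0.35, SE 0.15, adjusted p = 0.556). The values of Atp5me were 23.5, 29.6 and 28.5 CPM and 34.7, 33.7 and 32.03 CPM (log2 fold change 0.30, SE 0.13, adjusted p = 0.569). In each of the 3 genes every esculetin library lay above every control library, and control replicate 1 was the lowest. Without that library the log2 fold changes were 0.23, 0.20 and 0.21.

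The small liver differences of the nuclear members lay on the same side. Of the 82 tested, 81 had a log2 fold change above 0, whereas 46.5% of all genes did, and their median was 0.18 against -0.02 over all genes. Members share libraries and are not independent of each other. In 19 of the 82 all esculetin libraries were above all controls, a pattern shown by 6.52% of all genes, and in 0 all were below, as 7.95% of all genes were. Without control replicate 1 the median of the nuclear members was 0.08, with 73 of them above 0. Without control replicate 3, whose nuclear levels were close to those with esculetin, the number of nuclear members with no overlap became 73. Leaving out a control makes separation easier for any gene. The share of all genes in that setting is not given here, so the count has no comparison. By complex the medians were 0.17 for I, 0.25 for II, 0.18 for III, 0.18 for IV and 0.20 for V. The median of the 13 mitochondrial genes was 0.01, and 0.34 without control replicate 1.

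In the oxLDL-treated cells, most nuclear subunit genes were lower with esculetin, in each of the 5 complexes, while several mitochondrially encoded genes were higher. Of 97 members tested, 57 were called lower, against 29.0% of all genes, and 8 were called higher, against 28.7% of all genes. The nuclear genes accounted for 56 of the lower calls and 2 of the higher ones among 84 tested, and their median log2 fold change was -0.39 against -0.01 over all genes. In 59 of them all esculetin libraries were below all controls (33.1% of all genes) and in 4 all were above (31.0%). By the study's own criterion, limma-voom with an unadjusted p under 0.05 and a fold over 1.5, 25 nuclear members were lower (18.8% of all genes) and 4 mitochondrial ones higher (19.2%). The share of all counts held by the nuclear genes was 1.05%, 1.16% and 1.15% in the controls against 0.733%, 0.787% and 0.791% under esculetin, with no overlap. A level in CPM is relative to the rest of the library, and in bulk samples fewer cells of a type and less RNA per cell cannot be told apart. Macrophage markers moved in the same libraries: 4 of the 6 tested were called higher and 1 lower, and the 10 markers summed to 1981 to 2204 CPM in the controls and 4724 to 7255 with esculetin, of which 3 were at 3 counts or fewer throughout. Their part in the subunit result was not tested.

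**Figure D3:**
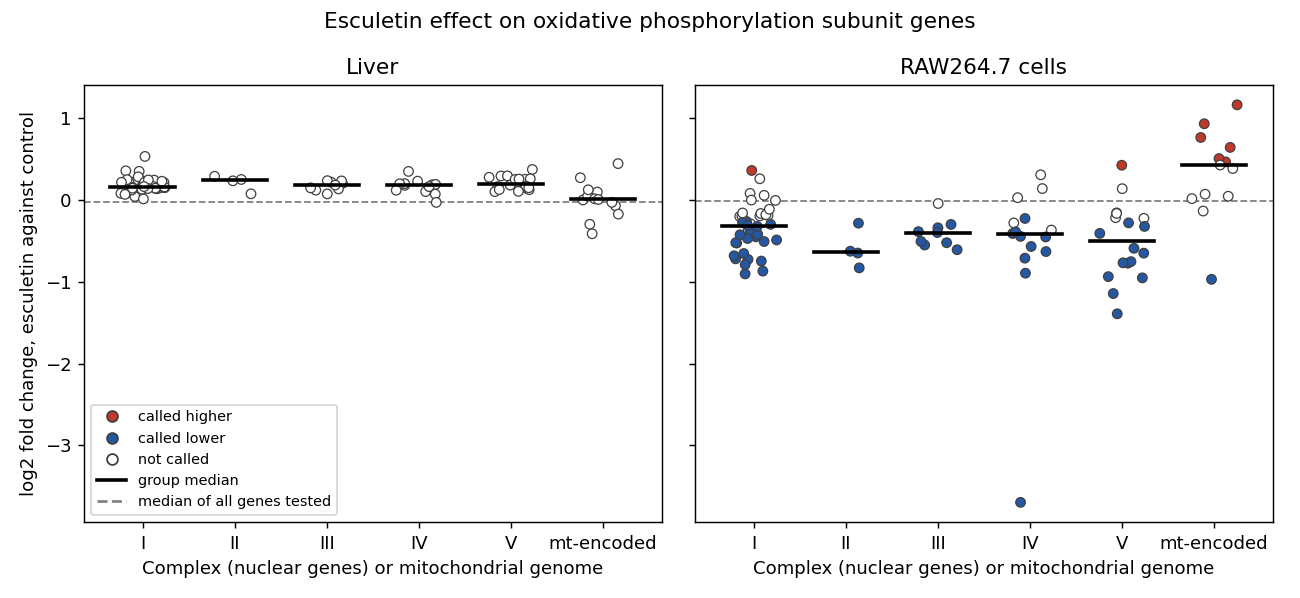
log2 fold change of esculetin against control for each tested member in the liver (left) and the RAW264.7 cells (right), by complex for nuclear genes and together for the mitochondrially encoded ones. Filled points were called at an adjusted p under 0.05 (blue lower, red higher), short bars are group medians and the dashed line is the median of all genes tested; the liver has no filled point, and in the cells the 5 nuclear medians lie between -0.64 and -0.32.

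Complex I, which oxidizes NADH, had 22 of 38 tested nuclear members called lower and 1 higher, with a median of -0.32. Over all genes of the cells 29.0% were called lower and 28.7% higher, the shares to set beside the counts of each complex. The smallest p among them belonged to Ndufv1, the flavin-binding subunit that takes electrons from NADH (chr19:4057384-4062814, minus strand, GRCm39). Its levels were 127, 148 and 142 CPM in the controls and 72.2, 76.3 and 74.7 with esculetin (log2 fold change -0.90, SE 0.09, adjusted p = 7.43e-06), so the groups were far apart. Ndufs8, which holds iron-sulfur clusters on the way to ubiquinone, went from 91.2, 100.3 and 100.0 to 53.6, 54.9 and 60.2 CPM (log2 fold change -0.79, SE 0.09, adjusted p = 1.97e-05). Ndufa10, an accessory subunit, was also called lower, at 149.9 ± 11.7 CPM (SD, n = 3) in the controls and 91.2 ± 2.72 with esculetin. The core subunit Ndufs1 was not called (log2 fold change 0.06, SE 0.09) and its groups overlapped. Ndufb9, an accessory subunit, was called higher, at 19.6, 22.2 and 20.8 CPM in the controls and 27.7, 26.04 and 26.8 with esculetin (log2 fold change 0.36, SE 0.11, adjusted p = 0.0124). Exons of other genes cover 32.0% of its exon bases, among them those of Tatdn1 and Mtss1, so reads of those genes cannot be told apart from its own in that stretch. The same holds for genes called lower, such as Ndufb11, with 67.8% of its exon bases shared with Rbm10, Ndufs7 (49.4%, Gamt) and Uqcrc2 (29.7%), all named for their overlap after their values were seen.

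Complex II, the only one with no mitochondrially encoded subunit, had all 4 of its members called lower, with a median of -0.64. Sdhb, the iron-sulfur subunit (chr4:140688502-140709380, plus strand), was at 129.8, 138 and 140.5 CPM in the controls and 68.4, 77.3 and 84.04 with esculetin (log2 fold change -0.83, SE 0.09, adjusted p = 2.21e-05). The membrane anchors Sdhc and Sdhd followed with log2 fold changes of -0.65 (SE 0.09) and -0.62 (SE 0.08). The flavoprotein Sdha, which oxidizes succinate, differed least, at 261, 265 and 281 CPM and 204, 221 and 239 CPM (log2 fold change -0.28, SE 0.08, adjusted p = 0.0143). Its call held in 11 of 13 alternative analyses and was lost without control replicate 3 or esculetin replicate 2. It also did not meet the study's criterion. All 12 esculetin values of the 4 genes lay below the lowest control value of the same gene.

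Complex III had 8 of 9 nuclear members called lower, with a median of -0.40. Cyc1, cytochrome c1, which hands electrons to cytochrome c, was at 125, 153 and 147 CPM in the controls and 87.8, 97.3 and 93.8 with esculetin (log2 fold change -0.61, SE 0.10, adjusted p = 0.000246). The core protein Uqcrc2 was at 236 ± 7.71 CPM (SD, n = 3) and 161 ± 12.1 CPM, and the Rieske iron-sulfur protein Uqcrfs1 at 180.3 ± 7.78 and 127 ± 3.68 CPM. Uqcrh, the hinge protein, was the exception, at 179, 175 and 172 CPM and 168, 176 and 166 CPM (log2 fold change -0.04, SE 0.08, adjusted p = 0.669), with overlapping groups.

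Complex IV had 10 of 15 tested nuclear members called lower and 0 higher, with a median of -0.41. By unadjusted p under 0.05 there were 11, all lower, where the share over all genes was 62.3%. Cox6a1, the broadly expressed form of subunit VIa (chr5:115483701-115487050, minus strand), was at 214, 247 and 266 CPM in the controls and 117, 133 and 141 with esculetin (log2 fold change -0.89, SE 0.10, adjusted p = 2.74e-05). Cox6a2, the heart and muscle form of the same subunit, had counts of 66, 60 and 58 in the controls and 4, 1 and 6 with esculetin (log2 fold change -3.70, SE 0.42, adjusted p = 2.39e-05), a low signal in both groups. An exon of the integrin gene Itgad covers 10.2% of its exon bases. Striated muscle markers as a whole summed to 4.48 to 6.84 CPM in the control cells and 0.341 to 1.17 with esculetin, with 2 of 5 tested and both called lower, Cox6a2 itself being 1 of them.

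In the other isoform pairs of complex IV the broadly expressed form had the higher level in control cells. Per kb of exon, control cells held 126 CPM of Cox4i1 and 1.70 of its lung form Cox4i2, 399 of Cox8a and 0 of Cox8b, and 55.1 of Cox6b1 against 0.0162 of Cox6b2. Cox7a2 was at 13.8 CPM per kb and its muscle form Cox7a1 at 2.98. Cox8a, which is small and lies in the membrane, was lower with esculetin, at 333, 370.3 and 364 CPM and 202, 227 and 224 CPM (log2 fold change -0.71, SE 0.09, adjusted p = 3.47e-05). Cox4i1 was lower too (log2 fold change -0.44, SE 0.09, adjusted p = 0.00137). Cox4i2 was not called (log2 fold change 0.14, SE 0.28). The call of Cox7a2l (log2 fold change -0.22, adjusted p = 0.0381) held in 6 of 13 alternative analyses. These do not include the study's criterion, which neither Cox7a2l nor Ndufa4 met. The call of Ndufa4 (log2 fold change -0.30, adjusted p = 0.0199) held in 10 of the 13.

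Complex V had 12 of 18 tested nuclear members called lower and 1 higher, with a median of -0.50, and among nuclear members it held the 4 most negative log2 fold changes after that of Cox6a2. Atp5if1, which blocks ATP hydrolysis by the reversed enzyme (chr4:132257215-132262823, minus strand), was at 58.4, 57.8 and 63.7 CPM in the controls and 24.6, 23.2 and 20.9 with esculetin (log2 fold change -1.39, SE 0.10, adjusted p = 1.23e-06). Every control value was above 57 CPM and every esculetin value below 25. Exons of the lncRNA Gm12999, on the other strand, cover 34.6% of its exon bases. Atp5f1e, the small epsilon subunit of the rotor stalk, was at 70.4, 86.8 and 74.8 CPM and 38.9, 30.7 and 35.6 CPM (log2 fold change -1.14, SE 0.11, adjusted p = 9.46e-06). Atp5f1b, the catalytic beta subunit and the most abundant nuclear member per library, went from 1628, 1904 and 1837 to 866, 1086 and 1193 CPM (log2 fold change -0.77, SE 0.12, adjusted p = 0.00028). Its partner Atp5f1a, the alpha subunit, was chosen after its values were seen. It was at 962, 1060 and 1071 CPM and 782, 908 and 963 CPM and was not called (log2 fold change -0.22, SE 0.10, adjusted p = 0.0791). It was called lower under 5 alternatives, with edgeR adjusted p = 0.0212 for library sizes only, 0.0372 with no filter, 0.0387 with the replicate block, 0.047 without control replicate 1 and 0.0254 without esculetin replicate 3.

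The c-ring of ATP synthase, which turns as protons pass, is encoded by 3 genes with the same mature protein and different leader peptides. In the cells Atp5mc1 had a log2 fold change of -0.95 (SE 0.12), Atp5mc2 of -0.94 (SE 0.08) and Atp5mc3 of -0.32 (SE 0.09), all called lower. Per kb of exon the levels in control cells were 6.69 CPM for Atp5mc1, 17.5 for Atp5mc2 and 41.9 for Atp5mc3. With the length of the canonical transcript they were 65.8, 156 and 112, so the order of the last pair depends on the length used. Copies elsewhere in the genome cover 52.9% of the 150-base windows of Atp5mc1 and 86.4% of those of Atp5mc2, against 0% for Atp5mc3, so the counts of the first pair are uncertain. Atp5pf, a peripheral stalk subunit, was called higher, at 46.9, 42.4 and 45.5 CPM and 57.4, 61.8 and 62.1 CPM (log2 fold change 0.43, SE 0.09, adjusted p = 0.00157). Exons of Gabpa and Jam2 cover 29.6% of its exon bases. Atp5pb, of the same stalk, was not called (log2 fold change 0.14, SE 0.08).

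**Figure D4:**
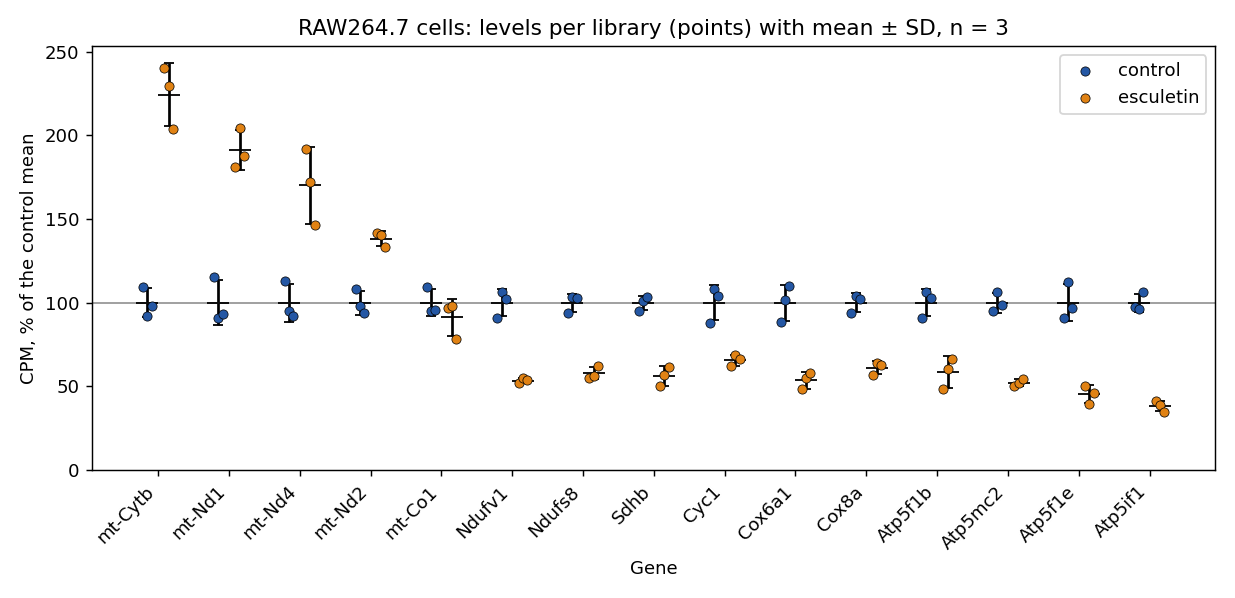
Levels of 15 members in RAW264.7 cells as a percentage of the mean of the 3 control libraries. Points are libraries (blue control, orange esculetin) and bars mean ± SD (n = 3); the groups are apart for every gene shown except mt-Co1, upward for mt-Cytb, mt-Nd1, mt-Nd4 and mt-Nd2 and downward for the nuclear genes.

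The mitochondrially encoded genes did not move as a block in the cells. Their share of all counts was 4.52%, 3.95% and 3.96% in the controls and 4.57%, 4.42% and 3.57% with esculetin, with overlapping groups, and mt-Co1 alone made up 2.31% to 3.44% of a library. Of the 13 genes 6 were called higher and 1 lower, against 28.7% and 29.0% of all genes. Of the 7 that are not fully copied in the nucleus, 4 were called higher and 0 lower. The remaining 2 higher calls and the lower one were among the 6 fully copied genes, whose values are uncertain. mt-Co1, the catalytic subunit of complex IV (chrM:5328-6872, plus strand), was at 33700, 29410 and 29420 CPM in the controls and 29870, 30320 and 24210 with esculetin and was not called (log2 fold change -0.13, SE 0.12, adjusted p = 0.355). Without it, the other 12 genes held 0.932% to 1.08% of the counts in the controls and 1.26% to 1.60% with esculetin, with no overlap.

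The genes called higher were led by the cytochrome b gene. mt-Cytb, the only mitochondrially encoded subunit of complex III (chrM:14145-15288, plus strand), was at 1992, 1680 and 1783 CPM in the controls and 4368, 4171 and 3708 with esculetin (log2 fold change 1.17, SE 0.11, adjusted p = 5.13e-06). The complex I gene mt-Nd1 (chrM:2751-3707, plus strand) was at 1930, 1523 and 1561 CPM and 3030, 3416 and 3141 CPM (log2 fold change 0.94, SE 0.11, adjusted p = 3.8e-05). In both genes the lowest esculetin value was above the highest control value by more than the range of the controls. mt-Nd4 was at 999.5, 838 and 815 CPM and 1699, 1523 and 1294 CPM (log2 fold change 0.77, SE 0.12, adjusted p = 0.000242), with 59.2% of its windows in the nuclear copy. mt-Nd2 was at 1255, 1141 and 1090 CPM and 1646, 1632 and 1546 CPM (log2 fold change 0.47, SE 0.09, adjusted p = 0.00116).

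Other complex I genes of the same genome behaved otherwise. mt-Nd5 was at 3408, 3288 and 2973 CPM and 4072, 2997 and 2730 CPM and mt-Nd6 at 826, 777 and 688 CPM and 1029, 751 and 631 CPM, and neither was called (adjusted p = 0.917 and 0.702, edgeR). In both genes esculetin replicate 1 was the highest of the 6 libraries. Without it their log2 fold changes turned from 0.02 to -0.17 and from 0.07 to -0.15. Among the 6 genes whose windows lie in the nuclear copy, mt-Co2 (log2 fold change 0.65) and mt-Co3 (0.51) were called higher and mt-Nd3 (-0.97) lower, at 1.09 to 3.07 CPM. The call of mt-Nd3 was lost in edgeR without control replicate 2 (adjusted p = 0.0701) or esculetin replicate 2 (adjusted p = 0.0603). Annotated pseudogenes in the nuclear copy drew counts as well: Gm28438 was called lower (log2 fold change -1.35, SE 0.20, adjusted p = 0.000183) and Gm28439 higher (log2 fold change 0.74, SE 0.14, adjusted p = 0.000811).

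Ratios of counts within a library do not depend on scaling and show the same unevenness. Counts of mt-Cytb came to 5.91, 5.71 and 6.06% of those of mt-Co1 in the control cells and to 14.6, 13.8 and 15.3% with esculetin. For mt-Nd1 the ratios were 5.73, 5.18 and 5.30% and 10.1, 11.3 and 12.98%, and for mt-Nd5 10.1, 11.2 and 10.1% and 13.6, 9.88 and 11.3%. The first pair of genes separated the groups and mt-Nd5 did not. In the liver the ratio of mt-Cytb was 24.2, 17.7 and 17.2% in the controls and 22.02, 20.1 and 19.5% with esculetin, with overlap. Both mitochondrial ribosomal RNAs, read from the same strand as mt-Nd1 and mt-Cytb, were called higher in the cells: mt-Rnr1 at 348, 320.5 and 291 and 610.5, 595 and 647 CPM (log2 fold change 0.95, SE 0.09, adjusted p = 6.33e-06) and mt-Rnr2 at 405, 305 and 273 and 729, 408 and 443 CPM (log2 fold change 0.68, SE 0.20, adjusted p = 0.0135). The call of mt-Rnr2 was lost without control replicate 3 (adjusted p = 0.0555) and with DESeq2 (adjusted p = 0.0531).

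The difference between the effects in cells and liver was tested in a 4-group model of all 12 libraries, which share no controls between the 2 effects. The esculetin effect differed for 58 of 97 members, against 27.1% of all genes, and without liver control replicate 1 for 53. Of the 58, 56 were nuclear, among 84 tested, and lower in the cells relative to the liver, as 13.7% of all genes were. The other 2 were among the 13 mitochondrial genes (15.4%) and higher, a share near the 13.4% of all genes. They were mt-Cytb (difference 1.11 on the log2 scale, SE 0.26, adjusted p = 0.00482) and mt-Nd1 (difference 0.97, SE 0.26, adjusted p = 0.0124). For Atp5if1 the difference was -1.80 with an SE of 0.22 (adjusted p = 3.18e-05), from 0.38 for liver against -1.39 for cells. Its levels were 6.26, 6.46 and 9.27 CPM in control livers and 58.4, 57.8 and 63.7 CPM in control cells. The tables were normalized separately, so these levels stand side by side and their difference was not tested. Per kb of exon Atp5mc3 led the c-ring genes in the controls of both tables. The order of Atp5mc1 and Atp5mc2, whose counts are uncertain because of copies elsewhere in the genome, was reversed between the tables. In the liver controls Atp5mc3 led with 153 CPM per kb of exon, followed by Atp5mc1 with 28.6 and Atp5mc2 with 11.3.

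**Figure D5:**
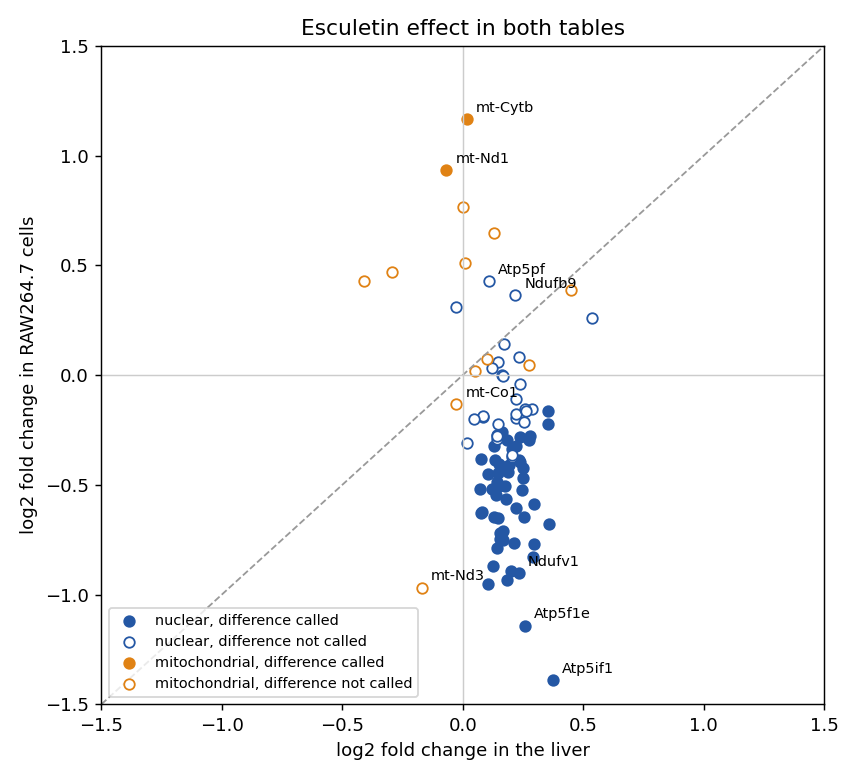
log2 fold change of esculetin against control in the liver (x) and in the RAW264.7 cells (y) for the 95 members tested in both tables, blue nuclear and orange mitochondrially encoded. Filled points had a called difference between the effects, and the dashed diagonal marks equal effects; nearly all filled points are nuclear genes at small positive x and negative y.

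Nuclear subunit promoters are known for sites of NRF1, GABPA, YY1 and Sp1, factors that couple nuclear genes to mitochondrial demand. RefSeq promoter sequences (assembly GRCm38.p6, 250 bases before to 50 after the start) were at hand for 68 of the 90 nuclear members. On either strand, the letters GCGCATG (NRF1) occurred in 19.1% of these members against 5.40% of 17492 protein-coding genes, CCGGAAG (GABPA and other ETS factors) in 23.5% against 12.95%, AAGATGG (YY1) in 16.2% against 7.18%, GGGCGG (Sp1) in 39.7% against 49.2% and CCAAT (NFY) in 42.6% against 42.3%. Among the 46 members called lower in the cells, 21.7% held the NRF1 letters, 28.3% GABPA, 15.2% YY1, 34.8% Sp1 and 41.3% NFY. Among the 18 that were tested and not called, the shares were 16.7%, 11.1%, 16.7%, 44.4% and 44.4%, so NRF1 and GABPA letters were more frequent in the former and the other 3 less, with no test of the difference. These are descriptions of letters, not of binding. The 140 bases just before the start are shown for the member of each complex that had the smallest p among those called lower with a single start in the table, with NRF1, GABPA and YY1 letters in capitals.
Ndufv1, chr19:4012756-4012895, minus strand: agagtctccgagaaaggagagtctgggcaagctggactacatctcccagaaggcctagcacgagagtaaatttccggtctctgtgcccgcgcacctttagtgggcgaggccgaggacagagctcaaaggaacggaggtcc
Sdhb, chr4:140961131-140961270, plus strand: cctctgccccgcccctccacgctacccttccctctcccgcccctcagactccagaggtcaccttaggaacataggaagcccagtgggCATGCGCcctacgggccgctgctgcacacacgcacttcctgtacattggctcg
Uqcrfs1, chr13:30545317-30545456, minus strand: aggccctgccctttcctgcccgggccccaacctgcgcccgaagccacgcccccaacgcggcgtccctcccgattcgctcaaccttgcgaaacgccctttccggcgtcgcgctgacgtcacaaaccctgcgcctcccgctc
Cox6a1, chr5:115348959-115349098, minus strand: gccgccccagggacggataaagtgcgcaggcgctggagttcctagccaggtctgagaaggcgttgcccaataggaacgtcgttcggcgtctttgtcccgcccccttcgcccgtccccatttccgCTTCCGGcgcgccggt
Atp5mc2, chr15:102671048-102671187, minus strand: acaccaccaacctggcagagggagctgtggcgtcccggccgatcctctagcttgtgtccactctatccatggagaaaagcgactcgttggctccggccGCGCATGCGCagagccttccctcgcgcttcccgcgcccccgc
The capitals mark NRF1 letters in Sdhb and Atp5mc2, where 2 occurrences on opposite strands overlap, and GABPA letters in Cox6a1. The windows of Ndufv1 and Uqcrfs1 hold none of the 3 motifs.

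The regulators of this gene set were measured too. Of 12 tested genes for mitochondrial biogenesis in the cells, 8 were called lower and 1 higher, where 29.0% and 28.7% of all genes were. Ppargc1b, a coactivator that drives subunit genes, was at 17.9, 18.02 and 21.7 CPM in the controls and 8.12, 5.72 and 7.08 with esculetin (log2 fold change -1.46, SE 0.16, adjusted p = 1.58e-05). Nrf1 was called lower (log2 fold change -0.78, SE 0.11, adjusted p = 0.000142), as was Gabpa (log2 fold change -0.42, SE 0.11, adjusted p = 0.00682), which overlaps Atp5pf. Esrra, a nuclear receptor partner of these coactivators, was not called (log2 fold change 0.21, adjusted p = 0.0739), and Ppargc1a had at most 1 count in any cell library. The gene called higher was Perm1, a muscle regulator of oxidative metabolism, at 0.415, 0.861 and 0.924 CPM in the controls and 8.49, 10.4 and 21.9 CPM with esculetin (log2 fold change 4.21, SE 0.41, adjusted p = 8.36e-06).

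Of 27 genes that transcribe, copy or process mitochondrial RNA, 7 were called higher and 9 lower, close to the 28.7% and 29.0% of all genes. Among them Ssbp1, which binds single-stranded mitochondrial DNA, was higher (log2 fold change 0.71, SE 0.10, adjusted p = 0.000152) and so was Mterf3, a regulator of mitochondrial transcription (log2 fold change 0.65, SE 0.11, adjusted p = 0.000419). Polrmt, the mitochondrial RNA polymerase, was lower (log2 fold change -0.73, SE 0.12, adjusted p = 0.000351), as were the topoisomerase Top1mt (log2 fold change -1.15) and Hsd17b10 (log2 fold change -0.84), part of the mitochondrial RNase P. Tfam, which packages and transcribes the genome, was not called (log2 fold change -0.22, adjusted p = 0.144).

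The share called lower in the cells was above the 29.0% of all genes in each of the remaining mitochondrial lists of nuclear genes. For assembly factors, import and electron entry with cytochrome c it was above by few genes. Of the 17 tricarboxylic acid cycle genes 11 were called lower and 0 higher, led by Idh2, which makes NADPH in mitochondria, at 290.4, 327 and 331 and 126, 126 and 114 CPM (log2 fold change -1.38, SE 0.09, adjusted p = 4.6e-07) and by Suclg2, the GTP-forming succinyl-CoA ligase subunit (log2 fold change -1.13, SE 0.08, adjusted p = 9.22e-07). In this list 12 genes had an unadjusted p under 0.05, where 62.3% of all genes did. Of 77 mitochondrial ribosomal proteins 42 were lower and 5 higher, with Mrpl38 (log2 fold change -1.15) and Mrps9 (-1.07) among the former and Mrps2 (0.91) and Mrpl49 (0.69) among the latter. Of 49 assembly factors 17 were lower and 5 higher, and 27 were not called. Ndufaf6, needed for complex I, had a log2 fold change of -1.70 and Uqcc2, needed for cytochrome b, of -0.91, whereas Ttc19, which acts on complex III, rose by 1.05 and Higd1a by 0.55. Of 10 genes for other electron entry points and cytochrome c, 4 were lower and 0 higher by edgeR, among them Gpd2 (log2 fold change -0.50) and Dhodh (-0.70). Cycs, cytochrome c, was not called (0.13). At an unadjusted p under 0.05 there were 4 of the 10, a share below the 62.3% of all genes.

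Carriers and import genes had calls in both directions, with the share called higher below the 28.7% of all genes in both lists. Of 14 carriers and uncoupling genes 7 were lower and 2 higher, where 29.0% of all genes were lower. The adenine nucleotide translocators, which exchange ATP for ADP, were on both sides: Slc25a5 was at 696, 774 and 759 and 448, 477 and 518 CPM (log2 fold change -0.63, SE 0.09, adjusted p = 0.00012) and Slc25a4 at 188, 191 and 190.0 and 224, 247 and 247 CPM (log2 fold change 0.34, SE 0.08, adjusted p = 0.00355). Mpc2, of the pyruvate carrier, was lower (log2 fold change -1.001) and Slc25a11, the oxoglutarate carrier, higher (0.45). Of 22 import genes 8 were lower and 2 higher. Timm17b at -0.87 and Timm13 at -0.57 were among the former, and Timm8b at 0.50 and Timm17a at 0.30 were the latter. The call of Timm17a was lost in edgeR with no filter, and without control replicate 2 or 3 or esculetin replicate 2 or 3. In the liver 0 genes of these 9 lists were called by edgeR, with between 0 and 3 of a list at an unadjusted p under 0.05, where 8.37% of all genes were.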

How the data were processed

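Counts of RNA-seq reads per gene, as deposited, came as 1 table for the 6 liver libraries and 1 for the 6 cell libraries. According to the study's methods and the submitters' processing notes, the authors prepared libraries with a kit that does not mark strand, sequenced paired ends of 150 bases, aligned them with HISAT2 2.2.1 and counted with featureCounts. The notes list both GRCm39 and mm10 as builds. The annotation release, the strand setting and the treatment of multiply placed reads are not given in the sources used here. Symbols and coordinates were taken from GENCODE mouse release 39 (GRCm39) by identifier, with 54749 of 55357 matched, and identifiers with no match held at most 0.033% of a library.

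Each table was fitted separately in edgeR 4.0.16 (filterByExpr, TMM scaling, quasi-likelihood test, treatment as the only term), with Benjamini-Hochberg adjustment over all genes tested. The groups were taken from the sample labels. A log2 fold change is esculetin minus control, and CPM uses the TMM factors. The difference between liver and cells was a contrast in a fit of all 12 libraries. An exact permutation test of 3 against 3 libraries cannot give a p below 0.1, so none was used. Alternatives were RLE, upper quartile and library-size scaling, mitochondrial genes removed before scaling, no filter, DESeq2 1.42.0 and limma-voom 3.58.1. Further ones were the study's criterion (unadjusted p under 0.05 and a fold over 1.5, here from limma-voom), a replicate block and leaving out each library. The fits were tested on simulated counts. Windows of 150 bases of each member's canonical transcript were searched for exact copies elsewhere in GRCm39, and promoters came from RefSeq (GRCm38.p6). Levels per kb use the union of exons. The canonical length and the leave-one-out counts of non-overlapping members were added after the data were seen.

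Members and gene lists were chosen with earlier results of these data known. The genes named were the 13 mitochondrial members, up to 3 nuclear members per complex, table and direction by smallest p, those with the highest and lowest level per length, tissue isoforms, the members with the smallest p for the difference between tables, and up to 2 genes per direction of each list, with a few regulators. Ndufa4, which the symbol puts in complex I, was counted there.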

Additional observations from a re-analysis of the deposited data

Results flagged for a closer look

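The effect of esculetin differed between the cells and the liver for 58 of 97 members, against 27.1% of all genes. This was a direct test of the difference in edgeR (adjusted p under 0.05). The members with the smallest p were nuclear, and all had a more negative effect in the cells. The difference was -1.80 on the log2 scale for Atp5if1, -1.44 for Atp5f1e, -1.18 for Ndufv1, -1.16 for Atp5mc2, -1.14 for Cox6a1 and -1.10 for Atp5mc1. Without liver control replicate 1 these differences were -1.65, -1.27, -0.99, -0.95, -0.97 and -0.96, and all 6 were still called. The liver and the cells also differ in dose, route, duration, oxLDL and diet, and the part of each in these differences cannot be told apart.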

How the results depend on the processing

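Over all genes the liver test called 11 of 12813, against 98 with DESeq2, 339 with no filter and 0 with library sizes only or without control replicate 2, esculetin replicate 1 or esculetin replicate 3, so the number of liver calls rests on these choices. In the cells the study's criterion, which needs a fold over 1.5, called 30 members in place of 65 and 25 nuclear members lower in place of 56. A set of 13 settings covered scaling, filter, tool, block and leaving out each library, without the study's criterion and the removal of mitochondrial genes. Of the 56, 43 were called lower under all 13. Of the genes called higher, 6 of 6 mitochondrial and 1 of 2 nuclear ones were kept under all 13. Leaving out each library gave 53 to 70 members called, 45 to 61 nuclear members lower, and nuclear medians of -0.43 to -0.35. In the liver it gave 0 members called, nuclear medians of 0.08 to 0.29, mitochondrial medians of -0.19 to 0.34, and 19 to 73 nuclear members above all controls. For that last range the matching shares of all genes are not given here. mt-Nd2 in the liver turned from -0.29 to 0.11 without control replicate 1, and ranged down to -0.52 without others. In the cells mt-Nd5 (0.02) became -0.043 with library sizes only, -0.024 with no filter, -0.0017 with limma-voom, also under the study's criterion, and -0.00033 with the replicate block, and it ranged from -0.17 to 0.13 over libraries left out. mt-Nd6 ranged from -0.15 to 0.22. The causes were not tested.

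Same-numbered samples did not deviate together in every pair (r = 0.14, -0.01 and 0.10 in the liver, 0.16, -0.03 and 0.08 in the cells, across genes). Control replicates 1 and 3 correlated best with their own number in both tables, and control replicate 2 did not. Correlations of deviations from means of 3 samples cannot decide whether the numbers pair samples, and the main fit did not pair them. With the replicate block, 0 liver members and 69 cell members were called (61 lower, 8 higher), and 123 and 7982 of all genes against 11 and 7667 without it.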
